A study of Mus musculus with 26 samples.

Results

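The 38 genes described here encode the extracellular part of the Wnt pathway: 19 Wnt ligands, 10 Frizzled receptors and 9 secreted antagonists, namely Sfrp1, Sfrp2, Sfrp4, Sfrp5, Frzb and Dkk1 to Dkk4. They were taken by name from 26180 RefSeq genes with a curated start site, by a rule that uses no measured value, although earlier results of these data were known when the list was chosen. For every gene and table of regions, the region kept was the one with the largest overlap with 1.5 kb on either side of a start site of the gene in mm10. Of the 38 genes, 37 had such a region in the E14 K4-K27 table and the same 37 in the E14 K27-K4 table, Dkk4 being the exception in both.

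Sequential ChIP (reChIP) was used to map nucleosomes carrying both H3K4me3, a mark of active promoters, and H3K27me3, the mark of Polycomb repression. In K4-K27 the H3K4me3 antibody was used first and in K27-K4 the H3K27me3 antibody, and a share of the first eluate was sequenced as in-line total H3K4me3 or total H3K27me3. All cells were mouse embryonic stem cells (mESCs) grown in serum and LIF: the non-clonal wild-type line E14 (replicates 1 and 2), WT clones 57 and 58, and DPPA2/4 double knockout (DKO) clones 43 and 53, which lack the priming factors DPPA2 and DPPA4. Each ChIP had 2 libraries per group, and IgG–IgG was sequenced for E14 replicate 1 and WT clone 57 only, so that enrichment in DKO clones was set against the WT control. A genotype is thus represented by 2 clones. The p-values rest on the spread between clones, which limma moderates with the spread at all other regions.

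Wnt proteins are lipid-modified secreted signals that bind Frizzled receptors together with LRP co-receptors, which stabilises beta-catenin or steers cell polarity. Sfrp proteins and Frzb carry a Frizzled-like domain and bind Wnts outside the cell, whereas Dkk1, Dkk2 and Dkk4 act on the LRP co-receptor. Most of these genes pattern the embryo after gastrulation, and developmental regulators of this kind are the classical bivalent genes of mESCs, poised by both marks at once.

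The 250 bases before the RefSeq start site (GRCm38.p6) were examined for CG dinucleotides, searched as the letters CG, which read the same on both strands. A promoter of this length was matched for 26 members. The 26 held 5 to 48 CG with a median of 22.5, against a median of 6 over 32851 RefSeq promoters of the same length. The ligands had a median of 28 (n = 15), the Frizzled receptors 28.5 (n = 6) and the antagonists 13 (n = 5). The 5 sequences given here are those of Wnt2 and Wnt16, the only members called between DKO and WT clones in the reChIPs, of Fzd1 and Dkk2, the receptor and antagonist with the highest reChIP enrichment in E14 cells, and of Fzd5, the receptor with the lowest. They are written 5′ to 3′ on the strand of the gene, with each CG in capitals, and stop at the first annotated exon.
Wnt2: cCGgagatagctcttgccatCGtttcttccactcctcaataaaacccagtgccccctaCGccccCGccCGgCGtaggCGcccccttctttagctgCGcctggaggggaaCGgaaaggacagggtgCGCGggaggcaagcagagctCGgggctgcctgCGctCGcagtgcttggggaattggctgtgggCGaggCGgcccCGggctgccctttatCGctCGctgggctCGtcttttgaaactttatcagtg
Wnt16: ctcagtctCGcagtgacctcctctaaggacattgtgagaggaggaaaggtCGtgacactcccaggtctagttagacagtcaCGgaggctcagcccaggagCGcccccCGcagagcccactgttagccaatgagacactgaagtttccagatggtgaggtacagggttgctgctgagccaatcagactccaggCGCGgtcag
Fzd1: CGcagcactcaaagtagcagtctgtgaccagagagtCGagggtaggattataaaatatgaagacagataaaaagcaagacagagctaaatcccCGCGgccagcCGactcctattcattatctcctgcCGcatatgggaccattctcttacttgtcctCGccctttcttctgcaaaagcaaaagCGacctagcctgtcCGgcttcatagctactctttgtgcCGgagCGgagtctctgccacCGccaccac
Dkk2: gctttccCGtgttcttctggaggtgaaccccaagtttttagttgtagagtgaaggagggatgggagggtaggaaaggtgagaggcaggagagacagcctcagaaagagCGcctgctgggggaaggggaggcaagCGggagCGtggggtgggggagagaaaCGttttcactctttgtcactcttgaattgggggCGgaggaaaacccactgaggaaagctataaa
Fzd5: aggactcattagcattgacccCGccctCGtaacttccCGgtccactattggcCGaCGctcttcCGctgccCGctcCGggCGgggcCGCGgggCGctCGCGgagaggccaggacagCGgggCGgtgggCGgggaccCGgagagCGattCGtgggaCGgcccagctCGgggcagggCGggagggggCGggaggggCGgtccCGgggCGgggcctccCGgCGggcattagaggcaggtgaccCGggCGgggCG
The Wnt2 stretch is chr6:18030446-18030695 on the minus strand and ends at the start site, and the Wnt16 stretch is chr6:22287977-22288177 on the plus strand and ends 49 bases short of it. The others are chr5:4758217-4758466 (minus) for Fzd1, chr3:132085042-132085265 (plus) for Dkk2 and chr1:64737751-64738000 (minus) for Fzd5. Counted over the full 250 bases, Wnt2 had 20 CG, a number reached by 17.9% of all promoters, and Wnt16 had 9, reached by 40.3%. Fzd1 had 12 (33.5% of promoters had as many), Dkk2 had 7 (46.3%) and Fzd5 had 32 (4.58%). Wnt16 and Dkk2 were thus nearer to the median promoter than most members, while Fzd5 was above the median of the members.

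Which members carried a region was first read from the tables. In E14 cells all 19 ligands, all 10 Frizzled receptors and 8 of 9 antagonists had a region in each reChIP table, against 64.5% of 21000 protein-coding genes in K4-K27 and 71.9% in K27-K4. Regions at members were broad, with a median width of 11100 bp in both E14 reChIP tables, whereas the regions of coding genes had a median of 4200 bp in K4-K27 and 4050 bp in K27-K4. The ligands were the broadest, with a median of 13950 bp in E14 K27-K4, compared with 7875 bp for the Frizzled receptors and 5175 bp for the antagonists. No 2 members shared a region in any table, although several ligand genes are neighbours.

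**Figure D1:**
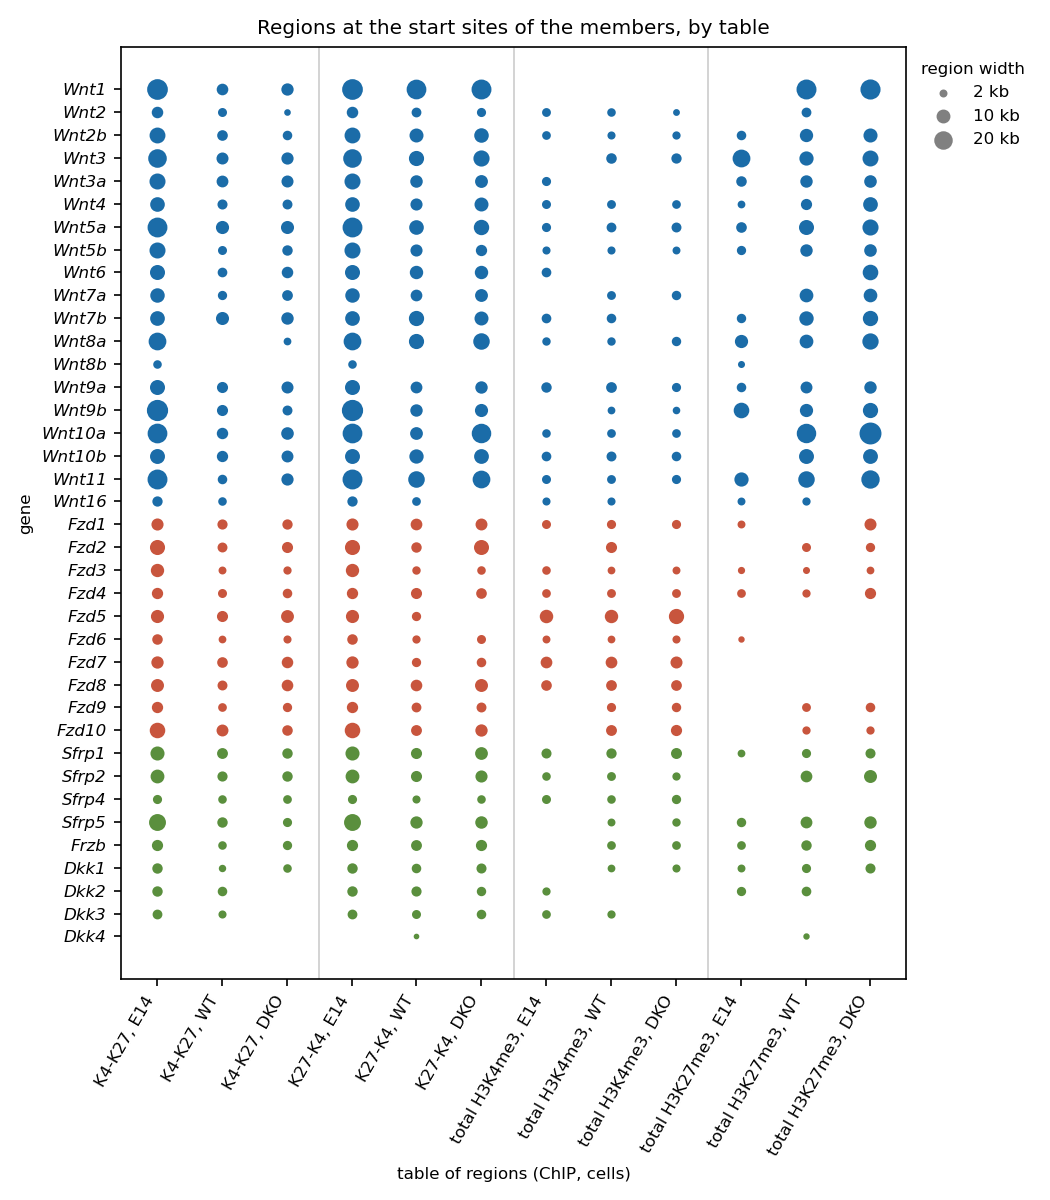
Each dot marks a region at the start site of the gene in that row, in the table of that column (3 cell groups for each of 4 ChIPs), and its area grows with the width of the region. Blue marks Wnt ligands, red Frizzled receptors and green antagonists, and empty cells are seen for Fzd5, Fzd7, Fzd8, Sfrp4 and Dkk3 under total H3K27me3 and for Wnt16 in every DKO column.

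Classes differed in the in-line totals of WT clones. Total H3K27me3 regions were listed for 17 of 19 ligands, 5 of 10 receptors and 7 of 9 antagonists in WT clones, while 16.9% of coding genes had one. The receptors Fzd5, Fzd7 and Fzd8 and the antagonists Sfrp4 and Dkk3 had no total H3K27me3 region in any of the 3 cell groups, and Fzd6 had one in E14 cells only. For total H3K4me3 the split was in the other direction in WT clones, with 10 of 10 receptors, 15 of 19 ligands and 7 of 9 antagonists, against 66.3% of coding genes. In E14 cells it was not, with 7 of 10 receptors and 14 of 19 ligands. A listed region depends on the threshold of the peak caller, so absence from a table is no measure of absence of the mark.

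A few members differed between tables. Wnt8b, a ligand of the developing forebrain, had a region in E14 tables only. Wnt8a had no K4-K27 region in WT clones. Dkk4 was listed only in WT clones, with a region of 300 bp in K27-K4 (13 and 16 reads in clones 57 and 58) and one of 750 bp in total H3K27me3, and the IgG–IgG library had 0 reads in both, so its enrichment rests on few reads. Wnt16 was listed in all 4 WT tables and in no DKO table. Dkk2 lacked a DKO region in K4-K27 and total H3K27me3, Dkk3 lacked one in K4-K27 and total H3K4me3, Wnt2 lacked one in total H3K27me3, Fzd5 lacked one in K27-K4, and Wnt7b and Fzd2 lacked one in total H3K4me3. The reverse was seen for Fzd1 and Wnt6, which had a total H3K27me3 region in DKO but not in WT clones, and for Wnt8a in K4-K27.

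The enrichment of reChIP over IgG–IgG in E14 cells was compared next, in log2 units in the region of each gene. The order by the mean of 4 reChIP libraries ran from Dkk2 to Wnt8b. It rests on 1 control library, in which the region of Dkk2 had 14 reads and the lowest value of the members (-1.55 log2 RPM per kb). By mean reChIP signal without the control, an order added after seeing the data, Wnt7b came first (3.29), followed by Fzd8 (3.04) and Fzd1 (2.90), and Dkk2 ranked 7 (2.87), while Wnt8b (0.17) and Fzd5 (0.90) stayed last. Dkk2 reached 3.87 and 4.33 in K4-K27, while K27-K4 gave 4.06 and 5.41 (replicates 1 and 2), a mean of 4.42. Fzd1 and Fzd4 followed at 3.61 each, Fzd6 at 3.50, Wnt16 at 3.48 and Wnt7b at 3.35. The ranges of Fzd1 (3.02 to 4.71 over 4 libraries) and Fzd4 (2.92 to 4.61) overlapped almost fully, so these neighbours in the order were not separated by their spread. Wnt16 had 2.76 and 3.42 in K4-K27, while K27-K4 gave 3.26 and 4.49, and Wnt7b had 2.90 and 3.13, then 2.87 and 4.49. Wnt10b (2.64 and 3.00, then 2.73 and 4.18) and Wnt5a (2.72 and 2.98, then 2.67 and 3.97) came next among ligands. Frzb was the second antagonist, with 2.63 and 3.05 in K4-K27, while K27-K4 gave 2.59 and 4.10. For each of these genes the gap between replicates of K27-K4 was larger than the differences between neighbours in the order.

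At the other end, Wnt8b had a mean of 0.96, with 1.08 and 0.90 in K4-K27, while K27-K4 gave 0.77 and 1.09, and its highest library was below the lowest of Wnt9b (1.60). Wnt9b, a ligand of kidney and facial development, had a mean of 2.03 (2.19 and 1.67 in K4-K27, 1.60 and 2.68 in K27-K4). Fzd5, a receptor of eye and gut development, was the lowest receptor with a mean of 1.23. Its 2 orders of antibodies differed: K4-K27 gave -0.52 and 1.36, so that replicate 1 was below IgG–IgG, and K27-K4 gave 1.43 and 2.67. All other members had positive enrichment in all 4 libraries.

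**Figure D2:**
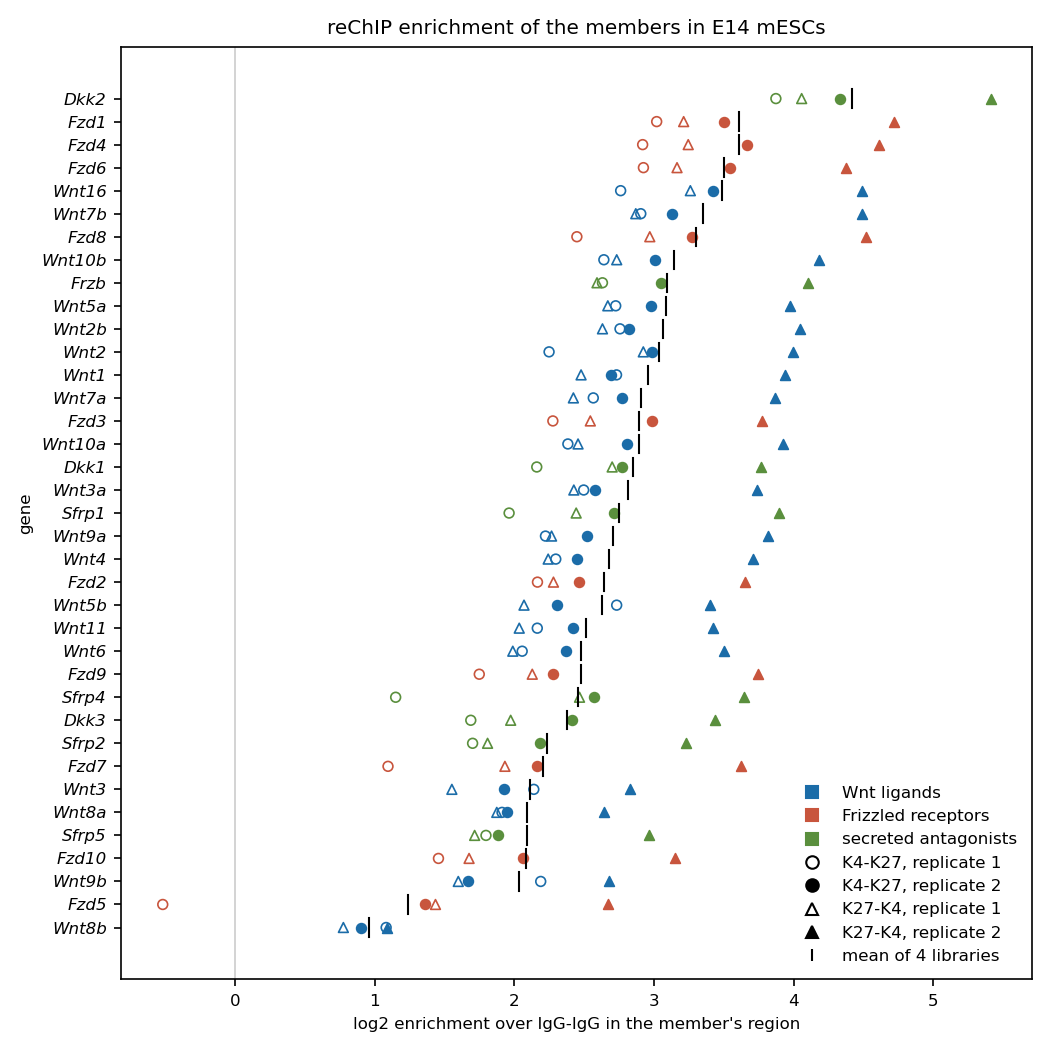
Log2 enrichment over IgG–IgG of 37 members in E14 cells (x axis), ordered by the mean of 4 reChIP libraries (black ticks), with circles for K4-K27, triangles for K27-K4, open symbols for replicate 1 and filled ones for replicate 2. Ligands (blue), receptors (red) and antagonists (green) are interleaved from Dkk2 (mean 4.42) to Wnt8b (mean 0.96), and K27-K4 replicate 2 is the highest library for all 37 genes.

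Ligands and receptors as classes were not separated by E14 reChIP. In K4-K27 the ligand median was 2.38 in replicate 1 and 2.58 in replicate 2, and the receptor median 2.22 and 2.73, so that the sign of the difference changed between replicates (0.16 and -0.15). In K27-K4 the ligand medians were 2.42 and 3.82 and the receptor medians 2.41 and 3.76. The corresponding medians over coding genes with a region were lower, at 0.83 and 2.06 in K4-K27, while K27-K4 gave 1.59 and 2.75.

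The order of antibodies was then tested in E14 cells at 21857 regions listed in both reChIP tables. No member was called (an absolute log2 difference above 1 with adjusted p under 0.05, limma with Benjamini-Hochberg adjustment), nor was any region (percent called 0), and no member had an unadjusted p under 0.05 against 55 of all regions. The labels give replicates 1 and 2 different sequencing batches, and with replicate as a block 6.97% of regions passed, each with more signal in K27-K4, and Fzd5 was the one member among them (1.63, adjusted p = 0.013). Fzd7, at 1.15 (adjusted p = 0.13 with the block), and Sfrp4, at 1.19 (adjusted p = 0.076), had the next largest differences of members. The median difference was 0.60 over members and 0.70 over all regions.

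The balance of total H3K4me3 and total H3K27me3 separated the classes more clearly. It was taken as the log2 difference of the 2 totals within the E14 K27-K4 region of each gene, where the median over all 36235 regions was 0.61. Wnt8b had the lowest balance, with -1.56 and -1.58 in replicates 1 and 2. Fzd5 had the highest, at 2.87 and 3.65, followed by Fzd7, a receptor already active in undifferentiated stem cells, at 1.93 and 2.51. The zero of this scale compares 2 different antibodies and carries no meaning by itself, so values are read against the median of all regions.

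In the fit over E14 libraries, 6 members were called, beside 45.6% of regions (40.2% higher and 5.43% lower in total H3K4me3). Higher in total H3K4me3 were Fzd5 (3.26, SE 0.32, adjusted p = 2.0e-05), Fzd7 (2.22, SE 0.20), Sfrp4 (1.64, SE 0.30), Fzd10 (1.10, SE 0.20) and Dkk3 (1.08, SE 0.22), and Wnt8b was lower (-1.57, SE 0.37, adjusted p = 0.0040). The differences ran from 0.02 to 3.26 over receptors (median 0.72) and from -1.57 to 0.22 over ligands (median -0.38), beside a median of 0.61 over all regions. With replicate as a block the same 6 were called, beside 45.7% of regions, 40.2% higher and 5.45% lower. When each library was centred on its own median, 16 members were called, 2 higher (Fzd5 and Fzd7) and 14 lower, of which 12 were ligands and the others Dkk1 and Sfrp5, beside 28.8% of regions higher and 23.3% lower. After centring all 19 ligands and 5 of 10 receptors (Fzd1, Fzd2, Fzd3, Fzd4 and Fzd6) were below 0.

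The same separation stood in every pair of total libraries. All 19 ligands lay below the median of all regions in E14 replicates 1 and 2, in WT clones 57 and 58 and in DKO clones 43 and 53. Of the 10 receptors, 5, 5, 2, 4, 5 and 3 did, in the same order. Receptors were nevertheless below coding genes, with medians of 0.66, 0.78, 1.21, 0.65, 0.39 and 0.65 against coding-gene medians of 1.67, 2.31, 3.32, 2.19, 2.99 and 2.37. The difference between the receptor and ligand medians was 1.01 and 1.24 in E14 cells, 1.98 and 1.47 in WT clones, and 1.42 and 1.64 in DKO clones. The E14 regions of ligands were also broader, and the part of region width in this difference was not tested. Among receptors Fzd1 (0.08 and -0.03) and Fzd3 (-0.18 and 0.23) had the lowest balance in E14 cells, and among ligands Wnt16 (0.02 and 0.42), Wnt7b (0.17 and 0.25) and Wnt9a (0.42 and -0.02) had the highest.

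**Figure D3:**
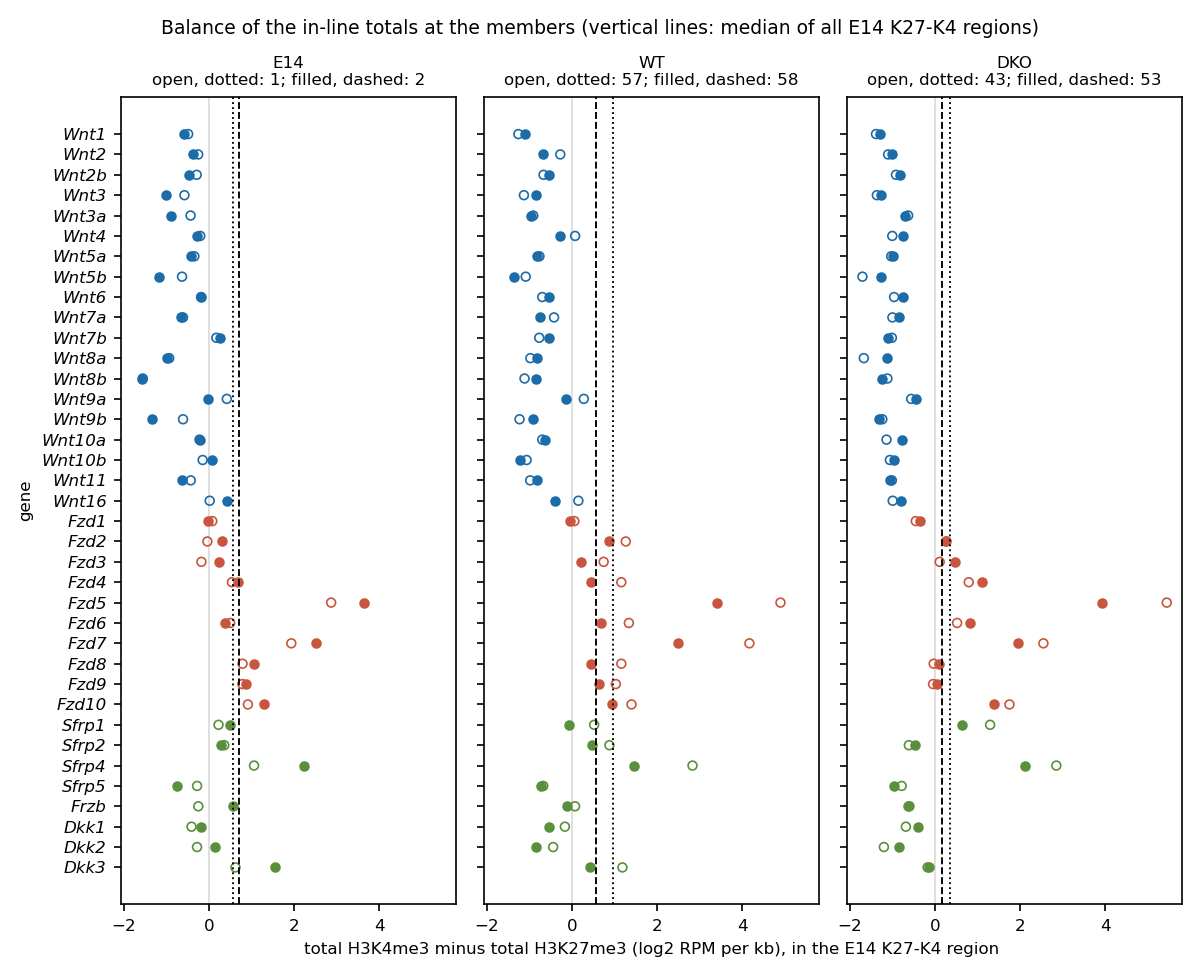
Total H3K4me3 minus total H3K27me3, in log2 RPM per kb, for 37 members in the E14 K27-K4 region, with a panel for each cell group, a point per library pair and vertical lines at the median of all regions for the same library pair. All ligands (blue) lie left of the lines, Fzd5 and Fzd7 (red) and Sfrp4 (green) lie far to the right in each panel, and the lines themselves lie further left in the DKO panel (0.35 and 0.17) than in the WT panel (0.96 and 0.55).

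Loss of DPPA2/4 was tested at regions of the WT and DKO tables, using the deposited values, which are log2 RPM per kb (reads in the region, scaled to the mapped reads of the library and to region width). Each member was represented by its region in the WT table, and by that in the DKO table only where WT clones had none, which was the case for Wnt8a in K4-K27 and for Wnt6 and Fzd1 in total H3K27me3. Coordinates were thus taken where WT clones had a region, and shares of coding genes rest on the same choice while those of all regions do not. In bulk ChIP a fall in signal because fewer cells carry a mark and a fall because each cell carries less cannot be told apart. In K4-K27, 36 members had a region and 2 of them, both ligands, were lower in DKO clones, beside 1.19% of 53855 regions called lower. In K27-K4 the same 2 ligands of 37 members were lower, beside 2.24% of 59260 regions, and in total H3K4me3 1 of 32 members was lower, beside 2.47% of 64063 regions. Coding genes with a region chosen in the same way were called lower at 2.1% in K4-K27, 5.42% in K27-K4 and 2.62% in total H3K4me3, so 1 or 2 called members are close to the background and describe these genes, not the list. No member of 31 was called in total H3K27me3, where 1.78% of 53286 regions were lower and 0.976% higher, while 2 members had an unadjusted p under 0.05, beside 15.4% of regions, and limma-voom on recovered reads called 1, Wnt16, beside 0.738% of regions called lower. No member was called higher in any ChIP, beside 0.00557% of regions in K4-K27, 0.027% in K27-K4 and 0.254% in total H3K4me3.

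Wnt16, a ligand known for its role in bone and blood stem cell formation, had the largest fall. In K4-K27 its region, chr6:22287451-22290000, had 3.08 and 2.62 log2 RPM per kb in WT clones 57 and 58, and 0.30 and -0.29 in DKO clones 43 and 53, from 199, 168, 33 and 27 reads. It fell by 2.85 on the log2 scale (SE 0.67), or 7.20-fold, with limma adjusted p = 0.0036. In K27-K4 the values were 3.62 and 2.67 in WT clones against 0.36 and 0.58 in DKO clones, a change of -2.68 (SE 0.43, adjusted p = 6.1e-06), which was not called when limma was run without trend and robust moderation (adjusted p = 0.058). In both orders of antibodies the WT clones stood far above the DKO clones without overlap.

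The totals at Wnt16 moved in the same direction. Total H3K4me3 was 2.38 and 1.23 in WT clones and -0.31 and -0.02 in DKO clones, a change of -1.97 (SE 0.56, adjusted p = 0.024). This call was lost by limma-voom (adjusted p = 0.055) and when the lowest quartile of mean values was left out (adjusted p = 0.082). Total H3K27me3 was 1.78 and 1.34 in WT clones and 0.13 and 0.53 in DKO clones, a change of -1.23 (SE 0.41) that did not pass (adjusted p = 0.075). The region covers the start site at 22288227, reaches 776 bp upstream and 1773 bp downstream of it in K4-K27, takes in 2 of 4 exons of the RefSeq transcript and overlaps no other annotated gene.

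Wnt2, a ligand of placental, lung and heart development, was the other called member. Its K4-K27 region, chr6:18029851-18032850, had 2.81 and 2.80 in WT clones and 0.44 and 0.60 in DKO clones (195, 224, 43 and 59 reads), a change of -2.29 (SE 0.63, 4.88-fold, adjusted p = 0.027). In K27-K4 it had 3.13 and 2.49 in WT clones and 1.14 and 1.19 in DKO clones, a change of -1.65 (SE 0.44, adjusted p = 0.021). It was not called without trend and robust moderation (adjusted p = 0.14), nor when DKO regions that overlap a WT region were left out (adjusted p = 0.071), an alternative chosen after seeing the data. The WT clones were higher than the DKO clones in each ChIP. Total H3K4me3 was 2.23 and 0.98 against -0.09 and 0.24 (-1.53, SE 0.56, adjusted p = 0.14) and total H3K27me3 was 1.74 and 1.35 against 0.69 and 0.60 (-0.90, SE 0.41, adjusted p = 0.25), neither of which passed. The change in total H3K4me3 ran from -2.15 to -0.91 over the clones left out, and it was called without WT clone 58. The region holds the curated start site at 18030445 with 1 of 5 exons of that transcript, and reaches 2405 bp upstream and 594 bp downstream of it. The annotated gene extends to 18032772, past this start site, so that most of the region lies within the gene, and no other gene overlaps it.

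Wnt2 still had DKO regions in K4-K27 and K27-K4, of 900 and 3150 bp against 3000 and 3900 bp in WT clones, with enrichment of 0.98 and 1.29 in K4-K27, while K27-K4 gave 1.49 and 1.49 (clones 43 and 53), against 2.87 and 2.86 and 3.56 and 2.93 in the WT regions of clones 57 and 58. In E14 cells Wnt16 ranked 5 and Wnt2 ranked 12 of 37 by reChIP enrichment, and 12 and 18 by reChIP signal without the control, and Wnt16 had the highest balance of totals among ligands in the E14 fit (0.22).

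Wnt2 and Wnt16 lie on chromosome 6, 4.26 Mb apart. The other WT regions within 500 kb of each were examined. Around Wnt16 the 8 others in K4-K27 had a median difference of -0.62 and the 17 in K27-K4 one of -0.97. Around Wnt2 the 12 others in each had -0.85 and -0.74. The medians over all regions were -0.0069 in K4-K27 and -0.15 in K27-K4, but these include regions listed for DKO clones only. Coding genes, chosen with WT regions first, had -0.11 and -0.20. The neighbours were all listed for WT clones, so they and all regions are not like sets. Of these neighbours none was called around Wnt16 and 1 was called lower around Wnt2 in each order. In the totals, 1 neighbour of Wnt16 was called lower in H3K4me3 and 1 in H3K27me3, and none of Wnt2. The lowest neighbours in K4-K27, not all of them called, had -4.11 around Wnt16 and -4.22 around Wnt2, beyond the differences of the genes themselves. In K27-K4 they had -2.20 around Wnt16, short of the -2.68 of the gene, and -2.97 around Wnt2, beyond its -1.65. The part of the surroundings in the change of either gene was not tested.

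These calls rest on 2 clones a side, and several were lost in the smaller fits that leave out a clone. Without any 1 of the 4 clones Wnt2 was not called in K4-K27 (adjusted p = 0.10 to 0.31) while its difference stayed between -2.36 and -2.21, and Wnt16 was lost without WT clone 57 (0.11), DKO clone 43 (0.055) or DKO clone 53 (0.22) while its difference stayed between -3.14 and -2.55. In K27-K4 both genes were lost without DKO clone 43 (adjusted p = 0.54 for Wnt2 and 0.15 for Wnt16) or 53 (0.55 and 0.080) and remained without either WT clone, with differences of -1.97 to -1.33 for Wnt2 and -3.15 to -2.20 for Wnt16 over the 4 fits. In total H3K4me3 Wnt16 was lost without WT clone 57 (-1.39, adjusted p = 0.087), DKO clone 43 (-1.83, adjusted p = 1.00) or DKO clone 53 (-2.11, adjusted p = 1.00). A lone clone is assumed to vary like the rest in such fits.

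**Figure D4:**
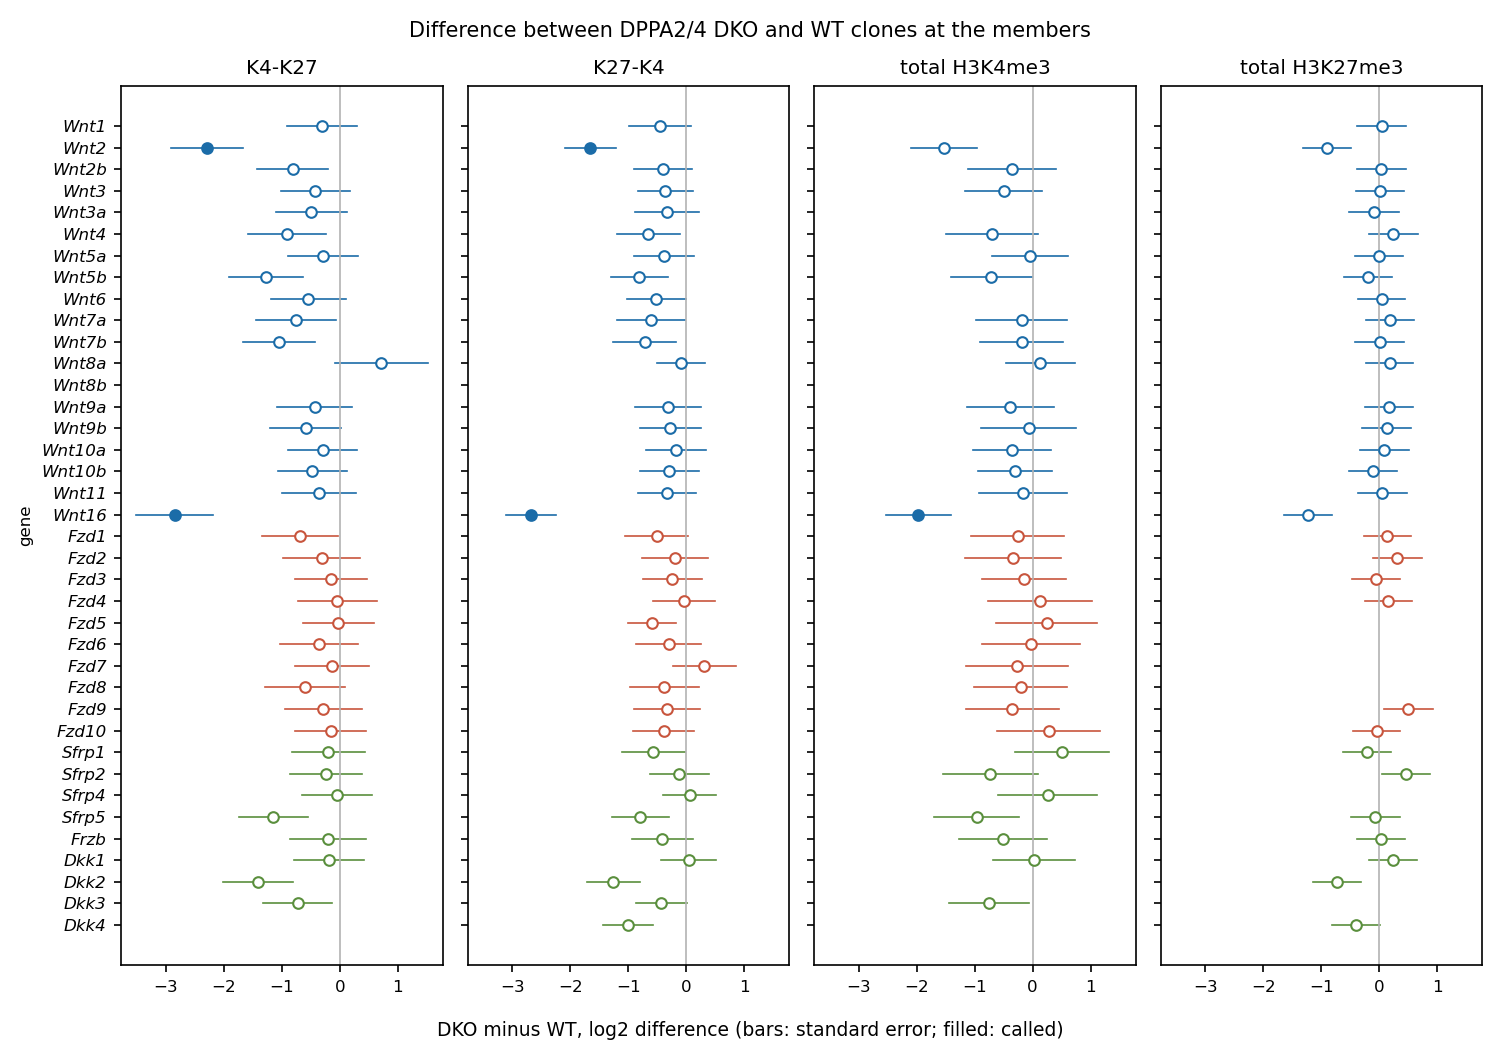
Log2 difference of DKO minus WT clones for each member (rows) in 4 ChIPs (panels), with bars of 1 standard error and filled points where the difference was called. Filled points are seen at Wnt2 and Wnt16 only, while the Frizzled receptors (red) sit between -0.69 and 0.50 in all panels.

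None of the other 16 ligands with a region was called in K4-K27. Their differences ran from -1.26 to 0.72 with a median of -0.48, and 15 of 16 were below 0, beside 50.4% of all regions and 60.5% of coding genes. In 9 of the 16 both WT clones were above both DKO clones, beside 19.2% of all regions and 13.8% of coding genes. With the DKO table first, 15 of 16 were below 0, beside 56.2% of coding genes, and at regions of the E14 reChIP tables, which do not depend on the clones, 16 of 17 were, beside 58.1%. In K27-K4 16 of 16 other ligands were below 0, beside 56.4% of all regions and 62.8% of coding genes. With the DKO table first, 15 of 16 were. In total H3K4me3 12 of 13 were below 0, beside 36.5% and 40.3%. Both WT clones were above both DKO clones in K27-K4 for 7 of 16 other ligands (30.8% of regions, 28.9% of coding genes). The same held in total H3K4me3 for 2 of 13 (12.6% and 8.01%) and in total H3K27me3 for 0 of 16 (18.5% and 15.9%). In K4-K27 Wnt5b, a non-canonical ligand of cartilage, had 4.18 and 3.79 in WT clones and 2.92 and 2.53 in DKO clones (-1.26, SE 0.64, adjusted p = 0.31). Wnt7b, a ligand of lung and kidney, had 3.75 and 3.52 against 2.84 and 2.34 (-1.05, SE 0.62, adjusted p = 0.42). Wnt4, needed for kidney and ovary, had 4.56 and 3.96 against 3.62 and 3.08 (-0.91, adjusted p = 0.575). These groups of clones did not overlap, yet none of the differences passed. Wnt8a, taken from a DKO region, had 1.03 and 0.25 in WT clones and 1.34 and 1.38 in DKO clones, the only positive difference of members in K4-K27 (0.72, SE 0.80, adjusted p = 0.81), from 23 to 61 reads per clone. It ran from 0.33 to 1.11 over the clones left out and turned to -0.54 when the region was sought within 5 kb of the start site.

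In total H3K27me3, 4 of these 16 ligands were below 0, beside 41.4% of all regions, and their median was 0.04 beside 0.11 over all regions. Wnt5b had 1.83 and 1.42 in WT clones and 1.53 and 1.32 in DKO clones (-0.20, adjusted p = 0.89), and Wnt7b had 2.26 and 1.45 against 1.85 and 1.88 (0.01, adjusted p = 1.00). Their WT and DKO clones overlapped in this mark.

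No Frizzled receptor was called in any ChIP by limma or by limma-voom, and none had an unadjusted p under 0.05, beside 15.8%, 18.9%, 10.6% and 15.4% of all regions in K4-K27, K27-K4, total H3K4me3 and total H3K27me3. In K4-K27 all 10 differences were negative but small, from -0.69 (Fzd1) to -0.02 (Fzd5) with a median of -0.22, and in none did both WT clones exceed both DKO clones, beside 19.2% of all regions. With 10 receptors at most, counts of 0 are near these shares. Fzd1 had 4.17 and 3.69 in WT clones and 3.73 and 2.75 in DKO clones (SE 0.65, adjusted p = 0.736). Fzd4, the norrin receptor of retinal vessels, had 4.30 and 3.63 against 4.47 and 3.39 (-0.04, SE 0.68, adjusted p = 1.00), with the DKO clones on either side of the WT clones. With standard errors of 0.62 to 0.69, a difference of 1 log2 unit at a receptor would not have passed.

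In K27-K4 the receptors ranged from -0.59 (Fzd5) to 0.31 (Fzd7) with a median of -0.31, beside a median of -0.15 over all regions, and Fzd5 was the only receptor of 10 whose WT clones both exceeded the DKO clones, beside 30.8% of regions (2.12 and 1.62 against 1.17 and 1.40, adjusted p = 0.43). Fzd7 had the largest positive difference, from 3.27 and 2.45 in WT clones to 3.34 and 3.01 in DKO clones (adjusted p = 0.76), and turned to -0.10 when WT clone 58 was left out. In total H3K4me3 they ranged from -0.35 (Fzd9) to 0.27 (Fzd10), and in total H3K27me3 the 6 with a region ranged from -0.05 (Fzd3) to 0.50 (Fzd9, 1.83 and 1.29 in WT clones against 2.03 and 2.10, adjusted p = 0.62). The Fzd9 difference ran from 0.23 to 0.77 over the clones left out.

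Among the antagonists Dkk2 was the most affected without being called. In K4-K27 it had 2.62 and 2.47 in WT clones and 1.40 and 0.88 in DKO clones (-1.40, SE 0.61, adjusted p = 0.22), in K27-K4 3.10 and 2.38 against 1.73 and 1.23 (-1.26, SE 0.46, adjusted p = 0.13), and in total H3K27me3 1.92 and 1.20 against 0.92 and 0.75 (-0.72, SE 0.41, adjusted p = 0.39). The WT clones were above the DKO clones in all 3, as they were at 19.2%, 30.8% and 18.5% of all regions in the same order. It was called in K27-K4 when WT clone 58 was left out (-1.62, adjusted p = 0.00021), and without WT clone 57 the difference was -0.90 (adjusted p = 0.10).

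Sfrp5, an antagonist of the foregut, had 3.28 and 2.71 against 1.84 and 1.86 in K4-K27 (-1.14, SE 0.59, adjusted p = 0.32). Dkk3 had 1.85 and 2.71 against 2.26 and 0.85 (-0.73, adjusted p = 0.65), with overlapping clones. Sfrp1, Sfrp2, Sfrp4, Frzb and Dkk1 lay between -0.23 and -0.04. In total H3K4me3 Sfrp1 had the largest positive difference of members, from 2.68 and 1.29 in WT clones to 2.63 and 2.35 in DKO clones (0.50, SE 0.81), which became -0.19 without WT clone 58, and Sfrp5 the largest negative one among antagonists (-0.97, adjusted p = 0.89). Dkk4 in K27-K4 rests on 7 to 16 reads per clone (-0.998, adjusted p = 0.20).

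**Figure D5:**
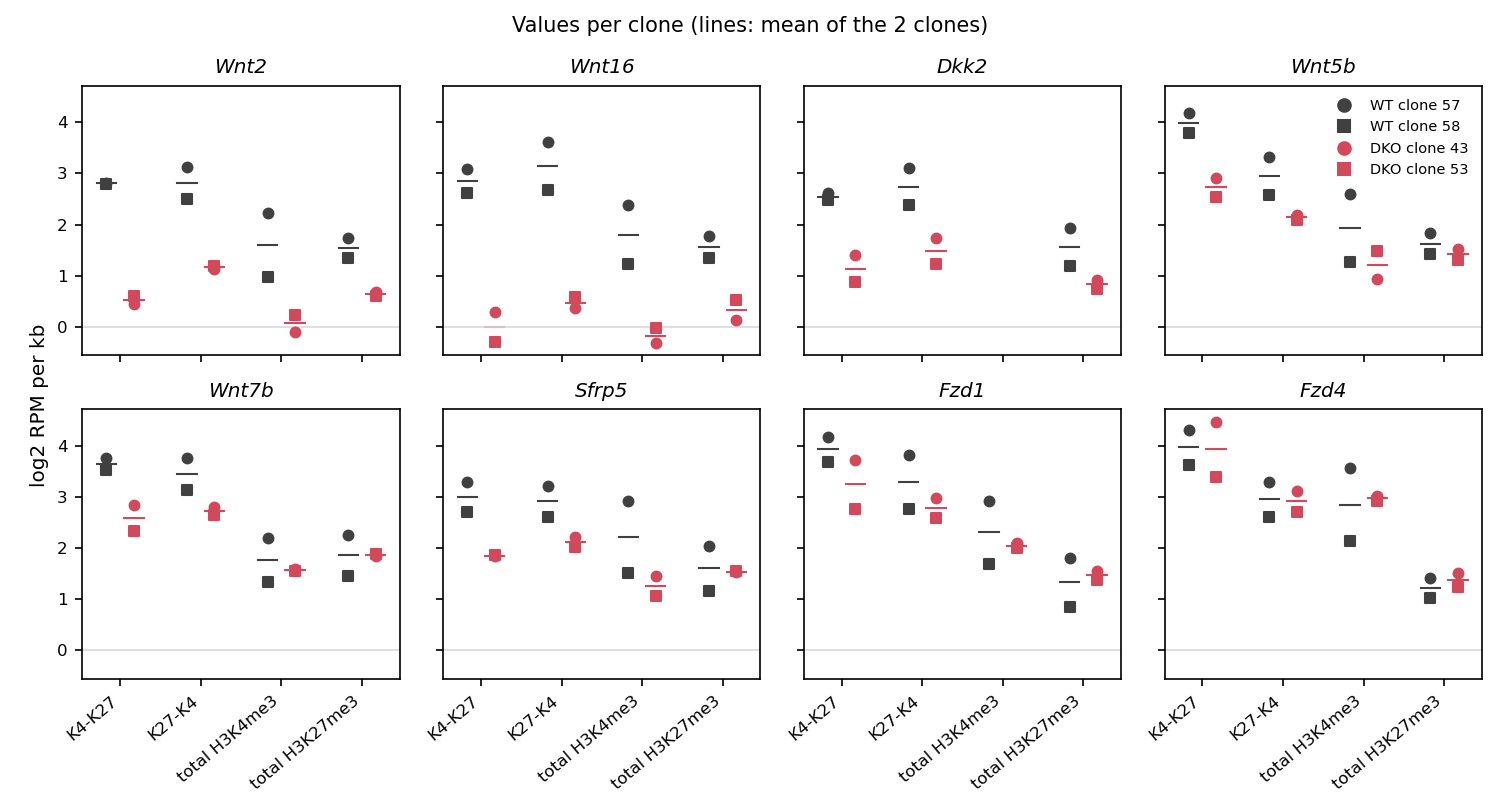
Values of 8 members in log2 RPM per kb (y axis) for 4 ChIPs (x axis), with circles for clones 57 and 43, squares for clones 58 and 53, black for WT, red for DKO and lines at the mean of the 2 clones. Wnt2 and Wnt16 drop in both reChIPs with no overlap between genotypes, Dkk2, Wnt5b, Wnt7b and Sfrp5 by less, and the clones of Fzd1 and Fzd4 overlap in most ChIPs; Dkk2 has no total H3K4me3 region.

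WT clone 57 was higher than clone 58 at most members, at 31 of 36 in K4-K27, 36 of 37 in K27-K4, 32 of 32 in total H3K4me3 and 31 of 31 in total H3K27me3, with median gaps of 0.47, 0.75, 1.23 and 0.66. Over all regions the same gaps were 0.58, 0.34, 1.02 and 0.34. Without WT clone 58, 10 members were called lower in K27-K4 (Wnt2, Wnt16, Wnt4, Wnt5b, Wnt7a, Wnt7b, Fzd1, Sfrp1, Sfrp5 and Dkk2) and 6 in total H3K4me3 (Wnt2, Wnt16, Wnt5b, Sfrp2, Sfrp5 and Dkk3), while without clone 57 the counts were 2 and 0. The shares of all regions called lower were 9.29% and 7.36% without clone 58, and 3.13% and 0.748% without clone 57.

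Whether the effect of the knockout depended on the order of antibodies was to be tested at regions with identical coordinates in the clone tables of both orders, but these were 815 and held no member. At the 21857 regions shared by the E14 tables, a set chosen after seeing the data, 37 members could be tested. None had an interaction past the threshold (percent called 0.00458, 1 region of all). None had an unadjusted p under 0.05 in limma either, beside 727 of the 21857 regions, so this count is near the background. The interaction was 0.36 (SE 0.64) for Wnt16 and 0.56 (SE 0.64) for Wnt2, and ran from -0.52 (Fzd5) to 0.85 (Wnt8b). At these regions, where the same coordinates serve each ChIP, Wnt16 was lower by 2.56 in K4-K27 and 2.20 in K27-K4 and Wnt2 by 2.09 and 1.53. Both were also called in total H3K4me3 (-1.76 and -1.41, limma adjusted p = 0.0076 and 0.048), for which the share of these regions called is not given here. In that ChIP both WT clones were above both DKO clones at 24.4% of these regions, beside 12.6% of those in the main fit.

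Ligands were finally set against receptors in each cell group, as the difference between the median enrichment of ligands and that of receptors. In K4-K27 it was -0.58 and -0.48 in WT clones 57 and 58 and -0.70 and -0.28 in DKO clones 43 and 53, with ligand medians of 3.32 and 2.89 and receptor medians of 3.90 and 3.37 in WT clones. In K27-K4 it changed sign in WT clones (-0.24 and 0.08) and was -0.34 and -0.08 in DKO clones. In total H3K4me3 ligands were below receptors in all 6 libraries, by -0.30 and -0.58 in E14 cells, -0.84 and -0.35 in WT clones and -1.12 and -0.72 in DKO clones. In total H3K27me3 the differences were 0.08 and 0.23, 0.13 and 0.06, and 0.12 and -0.06, within or near the gap between replicates. The members with a region differ between tables, from 13 to 19 ligands and from 4 to 10 receptors, so these medians are not over identical genes.

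The 52 other pathway genes listed for comparison (co-receptors, R-spondins, dishevelled and destruction complex proteins, TCF factors and feedback inhibitors) gave no call in any ChIP. Of all regions, 1.19% were called in K4-K27, 2.26% in K27-K4, 2.72% in total H3K4me3 and 2.75% in total H3K27me3, so no call among these genes is near the background. Regions were found for 52 of them in K4-K27, 40 in K27-K4, 50 in total H3K4me3 and 22 in total H3K27me3. The counts with an unadjusted p under 0.05 were 2, 0, 0 and 1, beside 15.8%, 18.9%, 10.6% and 15.4% of all regions, and limma-voom called none. Their median differences were -0.38, -0.16, -0.07 and 0.22. Rspo4, an R-spondin that amplifies Wnt signals, came nearest, with 3.75 and 3.10 in WT clones and 1.73 and 1.31 in DKO clones in K4-K27 (-1.90, SE 0.59, adjusted p = 0.085). Rnf43, a ligase that removes Frizzled receptors from the membrane, had the largest positive difference there (1.92, SE 0.88, adjusted p = 0.25).

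Libraries held between 6741245 and 47903464 reads. The identity of the cells was checked at 8 pluripotency genes, all of which had a total H3K4me3 region in E14, WT and DKO tables. They were also listed in reChIP tables, 6 of 8 in K4-K27 and 8 of 8 in K27-K4 of E14 cells, and 8 of 8 in K4-K27 and 2 of 8 in K27-K4 of both WT and DKO clones. Their enrichment in K4-K27 of WT clones was 2.24 to 3.98 in clone 57 and 1.21 to 3.50 in clone 58, beside ligand medians of 3.32 and 2.89, so a K4-K27 region or level does not by itself set the members apart from active genes. Of marker genes for other cell types, total H3K4me3 regions were listed in E14 cells for 2 of 3 endoderm, 1 of 2 neural and 2 of 2 fibroblast genes. In K4-K27 of E14 cells they were 3 of 3, 2 of 2 and 2 of 2, so a region does not by itself separate cell types. The targeted genes kept promoter H3K4me3 in DKO clones (Dppa2 2.08 and 1.34 against 1.90 and 0.77 in WT clones, Dppa4 2.39 and 1.56 against 2.34 and 1.45), and since a mark at the start site does not show whether a protein is made, these values do not check the knockout.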

How the data were processed

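The tables hold 26 ChIP libraries, 9 of E14 cells and 17 of clones. Per the labels and the study's methods, the authors trimmed single-end reads with Trim Galore 0.6.6, aligned them to mm10 with BWA 0.7.13 (SAMtools 1.9, Picard 2.6.0, deepTools 3.5.0 and MACS2 are also named) and quantified reads of mapping quality over 20 in SeqMonk within enriched regions. The deposited values are log2 RPM per kb, and whole reads could be recovered from them, with regions of 0 reads entered as 0.9 reads. The 12 tables were read through 240 columns, and 32 columns of no sample listed here were not used. Reads per library ranged from 6741245 to 47903464, which limits the precision at narrow regions.

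The members and gene lists were chosen with earlier results of these data known. All regions of the WT and DKO tables of a ChIP were fitted together with limma 3.58.1 (trend and robust) in R 4.3.3, with Benjamini-Hochberg adjustment over all regions, and a region was called at an absolute log2 difference over 1 and adjusted p under 0.05. Since the values are on a log2 scale, no count model was the main test, and limma-voom on recovered reads was an alternative. Enrichment is the log2 difference from IgG–IgG. Other alternatives were centring, a filter on low values, other promoter windows and leaving out each clone, and the set of E14 shared regions and the removal of overlapping DKO regions were chosen after seeing the data. The fit was tested on simulated data with known shifts. Tables were joined in Python 3.11.15 with pandas 2.3.3 and numpy 2.4.6, and figures drawn with matplotlib 3.10.9.

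Values per library are given for members called between genotypes, for the ligands, receptors and antagonists with the highest or lowest E14 reChIP enrichment and for the largest difference in each direction in each ChIP. Other genes with values per clone (among them Wnt4, Wnt5b, Dkk3, Sfrp5, Rspo4 and Rnf43) were picked after their values were seen. The E14 replicate number marks a sequencing batch in the labels. Deviations of same-numbered E14 libraries correlated at 0.22 between the reChIPs and -0.09 between the totals over 36235 regions.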

Additional observations from a re-analysis of the deposited data

How the results depend on the processing

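The 2 called ligands stayed called in K4-K27 under each planned scaling, filter, window and tool, leaving out a clone excepted. In K27-K4, moderation without trend and robust fitting called 0 members (Wnt2 adjusted p = 0.14, Wnt16 0.058), and leaving out DKO regions that overlap a WT region called 1. In total H3K4me3, centring and the E14 shared regions each called 2 members, while the filter on low values and limma-voom each called 0. In total H3K27me3 limma-voom called 1. Leaving out each clone gave 0 to 1 members in K4-K27, 0 to 10 in K27-K4, 0 to 6 in total H3K4me3, 0 to 0 in total H3K27me3 and 0 to 0 for the interaction. Centring gave 1 other pathway gene in K4-K27 and 1 in total H3K4me3, and 16 members for the E14 totals. Wnt8a in K4-K27 turned to -0.54 with the 5 kb window, Fzd7 in K27-K4 to -0.10 and Sfrp1 in total H3K4me3 to -0.19 without WT clone 58, and over the 4 clones left out they ranged from -0.10 to 0.72 and from -0.19 to 1.19. The cause of these changes was not tested.

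Over all regions, the 643 calls in K4-K27 became 7715 without trend and robust fitting and 1060 at the E14 shared regions. The 1341 in K27-K4 became 671 without overlapping DKO regions and 2043 at the E14 shared regions. The 1745 in total H3K4me3 became 3899 on centring and 336 with the filter. The 1468 in total H3K27me3 became 0 on centring, 314 with the filter, 427 by limma-voom, 179 without overlapping DKO regions and 618 at the E14 shared regions.

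The ligand minus receptor difference moved with the summary, the control and the window. With means over genes it was -0.25 in E14 K27-K4, -0.31 in WT K4-K27, 0.14 in WT K27-K4, 0.25 in WT total H3K27me3, -0.40 in DKO K27-K4 and -0.024 in DKO total H3K27me3. Without IgG–IgG subtraction it was -0.076 in E14 K27-K4, -0.43 in WT K4-K27 and 0.24 in WT total H3K27me3. With the 5 kb window total H3K27me3 gave -0.24 in E14 cells and -0.16 in WT clones, and the region with the highest mean gave 0.020 in E14 cells. Single libraries ranged from -0.15 to 0.16 in E14 K4-K27, 0.01 to 0.06 in E14 K27-K4, -0.58 to -0.30 in E14 total H3K4me3 and 0.08 to 0.23 in E14 total H3K27me3. In WT clones they ranged from -0.58 to -0.48, -0.24 to 0.078, -0.84 to -0.35 and 0.06 to 0.13, and in DKO clones from -0.70 to -0.28, -0.34 to -0.08, -1.12 to -0.72 and -0.058 to 0.12, in the same order of ChIPs.

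With replicate as a block, the pairing of E14 libraries by batch gave 1 member (Fzd5) between the orders of antibodies and the same number, 6, between the totals. With clone as the block the interaction gave 0 members. No paired analysis was possible for DKO against WT because the clones share no replicate numbers. Fits without an E14 replicate were not run, since they leave no spread to estimate.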
